A study of Homo sapiens with 16 samples.

Results

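The EGR, FOS and JUN immediate early factors were followed over time of hepatocyte growth factor (HGF) in a line with wt MET and a line with MET∆14. The genes were taken by symbol from the deposited count table: EGR1, EGR2 and EGR3, which encode zinc finger transcription factors, FOS, FOSB, FOSL1 and FOSL2, which encode the FOS proteins, and JUN, JUNB and JUND, which encode the JUN proteins. These are 10 of the 42351 genes in the table, and all 10 were among the 15067 genes that passed the filter on low counts and were tested. Immediate early genes are switched on by growth factors without new protein synthesis, largely through ERK-driven ELK factors and serum response factor (SRF) bound at CArG boxes and through CREB or ATF factors at cyclic AMP response elements. FOS proteins bind DNA as dimers with JUN proteins, forming AP-1, and JUN proteins also pair among themselves. EGR factors bind GC-rich elements and are held back by the corepressors NAB1 and NAB2, themselves known EGR targets.

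The study asked how the response to HGF, the ligand of the MET receptor kinase, differs once exon 14 of MET is lost. Poly(A) RNA was sequenced from 2 lung cancer lines, A549 for wt MET and NCI-H596 for MET∆14 (the exon 14 deletion), each at 0, 3, 6 and 12 h of HGF with 2 libraries per condition, 16 in all. Both lines were kept without serum for 12 h per the labels before HGF was added, including the 0 h cells, and the study's methods give a longer deprivation and name another wt MET line, EKVX. Each MET status was 1 cell line, so MET status cannot be told apart from other differences between the lines. No untreated cells were collected at 3, 6 or 12 h, so HGF cannot be told apart from time without serum. No time between 0 and 3 h was sampled, so any earlier rise or fall was not seen in either line. The study describes its RNA-seq duplicates as biological, while the labels do not say whether they came from separate cultures, and p-values measure only the spread between these libraries.

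Library totals ran from 10158590 to 23909304 counts. Keratins KRT8 and KRT18 were high in both lines, but in the wt MET libraries the epithelial markers EPCAM (0.868 to 2.97 CPM) and CDH1 (2.54 to 12.6 CPM) were low. CDKN2A, which A549 is known to lack, had 0 counts in all wt MET libraries, and RB1, known to be lost in NCI-H596, had 8.08 to 15.3 CPM with MET∆14 against 65.2 to 111 CPM with wt MET. Leucocyte marker PTPRC had at most 2 counts in any library, but CD14, a monocyte marker, had 98 to 438 counts (6.79 to 22.2 CPM) with MET∆14 against 1 to 6 counts with wt MET. COL3A1, a fibroblast marker, reached 170.1 to 328 CPM with MET∆14 while LUM, another, had 0 counts there. The part of CD14 and COL3A1 in the results was not tested. The replicates of wt MET at 0 h stood further apart than those of the other wt MET conditions, with a chi-square per degree of freedom of 9.80 against 2.75 to 3.75, and those of MET∆14 at 12 h stood furthest apart, at 34.1.

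The stretches of 250 bases before the start site were read from RefSeq (GRCh38.p14) for 8 of the genes, with FOSL1 and EGR3 not covered. Both strands were searched for the CArG box (SRF), for TGACGTCA (the full cyclic AMP response element) and its shorter core TGACG, for TGANTCA (AP-1) and for GCGNGGGCG (EGR), where TGACGTCA holds TGACG on each strand. EGR1 held 2 CArG boxes and the third of the 3 EGR2 starts held 1, where 1.16% of all 35116 promoter windows held any. TGACG was found in 21.2% of all windows, counted by window and not by gene. Every one of the 8 genes had it before at least 1 of its starts, for EGR2 the third of its 3 starts alone. TGACGTCA was found for JUND alone among them (1.65% of all windows), GCGNGGGCG for EGR1 alone (8.41%), and TGANTCA for none (6.57%). The windows shown are those of EGR1 and EGR2, which rose steeply with wt MET, beside FOS and JUND. FOS also rose, but its known serum response element lies further upstream, and JUND had the smallest rise at 3 h. FOSB and JUNB, not shown, also rose steeply (log2 fold changes of 5.21 and 3.90 at 3 h) and had no CArG box in their windows. Capitals mark the matches, and the sequences run 5′ to 3′ on the strand of the gene: EGR1 at chr5:138465229-138465478 (plus strand), EGR2 at chr10:62816367-62816616 (minus), FOS at chr14:75278578-75278827 (plus) and JUND at chr19:18281623-18281872 (minus).
EGR1: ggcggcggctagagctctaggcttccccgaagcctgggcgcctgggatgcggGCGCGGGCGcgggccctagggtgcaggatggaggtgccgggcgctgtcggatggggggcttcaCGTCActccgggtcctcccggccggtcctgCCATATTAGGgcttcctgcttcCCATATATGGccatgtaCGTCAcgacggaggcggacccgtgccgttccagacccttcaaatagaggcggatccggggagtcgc
EGR2: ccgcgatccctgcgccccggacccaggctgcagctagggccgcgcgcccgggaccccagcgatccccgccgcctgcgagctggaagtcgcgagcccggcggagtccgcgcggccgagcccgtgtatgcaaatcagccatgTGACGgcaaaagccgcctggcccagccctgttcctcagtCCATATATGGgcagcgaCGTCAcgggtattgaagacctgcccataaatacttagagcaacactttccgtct
FOS: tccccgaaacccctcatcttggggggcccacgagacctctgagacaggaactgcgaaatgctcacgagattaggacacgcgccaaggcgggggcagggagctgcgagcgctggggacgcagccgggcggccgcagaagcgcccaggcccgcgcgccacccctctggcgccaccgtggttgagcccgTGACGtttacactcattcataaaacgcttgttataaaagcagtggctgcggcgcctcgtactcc
JUND: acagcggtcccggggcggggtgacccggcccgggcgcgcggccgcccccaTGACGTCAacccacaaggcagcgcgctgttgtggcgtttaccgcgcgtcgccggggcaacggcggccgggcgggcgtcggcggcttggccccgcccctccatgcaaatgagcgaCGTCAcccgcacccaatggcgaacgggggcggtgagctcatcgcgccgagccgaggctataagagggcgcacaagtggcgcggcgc
The EGR1 boxes lie 105 to 96 and 83 to 74 bases before the start, and that of EGR2 71 to 62 bases before it. A match is a description of the letters and not evidence of binding, and no match says only that these letters are not in this window.

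Before HGF the 2 lines held these transcripts at different levels. Levels are given as CPM (counts scaled to library size) after TMM scaling and, where genes are compared with each other, as CPM per kilobase of annotated exon. With wt MET at 0 h, FOSL1 was the most abundant at 569.9 ± 134 CPM per kb (SD, n = 2), followed by JUN at 272 ± 29.8 and FOSL2 at 108 ± 8.03, while EGR3 was the least at 0.064 ± 0.029. With MET∆14 the order was led by JUNB at 126 ± 5.74 CPM per kb and EGR1 at 70.1 ± 3.57. JUND and JUN followed at 46.4 ± 3.72 and 42.9 ± 2.52, a gap within their spread. Of the 10 genes, 4 were higher with MET∆14 at 0 h (EGR1, EGR3, FOS and JUNB) and 5 lower (EGR2, FOSB, FOSL1, FOSL2 and JUN), where 40.6% and 39.6% of all tested genes were called higher and lower. Both counts lie near these shares, so they set these genes little apart from the rest. A call here means an adjusted p under 0.05 from edgeR's quasi-likelihood test. FOSL1 differed most, with 897 and 1254 CPM in the wt MET libraries against 43.5 and 53.7 CPM with MET∆14 (log2 difference -4.46 ± 0.16, where ± after a log2 value is its SE, adjusted p = 1.40e-12). FOSL1, FOSL2 and JUN were lower in each MET∆14 library than in any wt MET library at any time, FOSL1 spanning 897 to 2594 CPM with wt MET and 43.5 to 429 CPM with MET∆14. JUNB ran the other way at 0 h, at 57.9 and 57.8 CPM with wt MET against 224 and 239 CPM with MET∆14 (log2 difference 2.0 ± 0.12). The wt MET replicates at 0 h differed for these genes too: 9 of the 10 were higher in replicate 2, all but JUNB, by up to 2.10-fold for EGR1. Without that replicate the FOSB difference was no longer called (log2 difference -0.34, adjusted p = 0.0514). In bulk RNA, fewer cells with a transcript and less transcript per cell cannot be told apart.

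**Figure D1:**
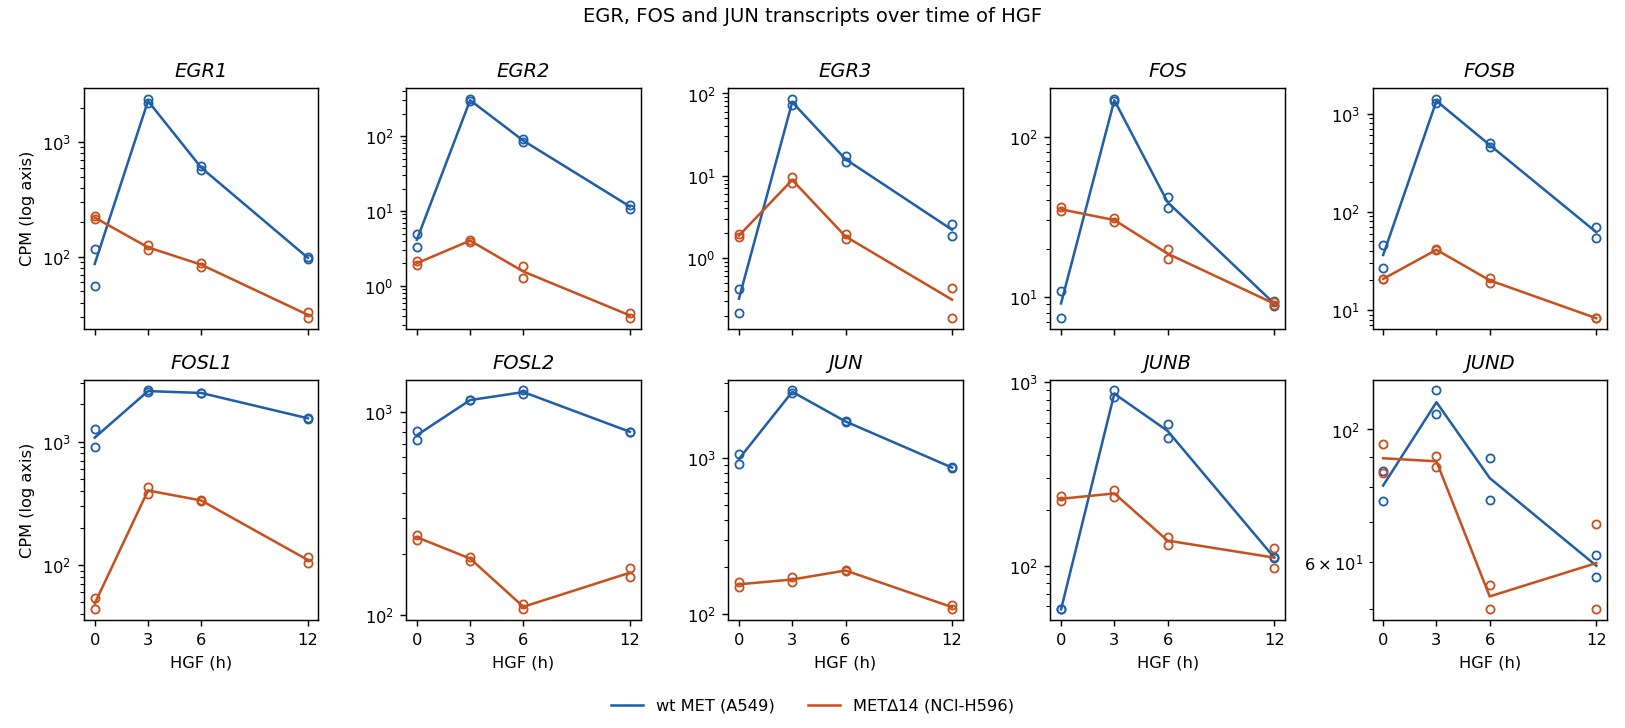
CPM (log axis, scaled separately in each panel) of each gene against hours of HGF, with wt MET in blue and MET∆14 in orange; circles are the 2 libraries of a condition and lines join their means. Of the times sampled, 3 h had the highest mean for 9 of 10 genes with wt MET. With MET∆14, EGR1, FOS, FOSL2 and JUND had it at 0 h.

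In cells expressing wt MET, all 10 genes were called higher at 3 h than at 0 h and none lower, against 10.3% and 7.16% of all tested genes. Their median log2 fold change was 4.05, where the median over all tested genes was -0.04. EGR1 (chr5:138465479-138469303, hg38, plus strand), the best known EGR factor, had 55.9 and 118 CPM at 0 h and 2203 and 2362 CPM at 3 h. The 3 h libraries stood far above both 0 h libraries, a rise of 4.72 ± 0.25 on the log2 scale (adjusted p = 5.25e-08). It was 4.28 without replicate 1 of 0 h and 5.38 without replicate 2. EGR2, known for its part in myelination and lymphocytes, reached 293 and 311 CPM from 3.33 and 4.95 CPM (log2 fold change 6.18 ± 0.15). EGR3, a relative with roles in muscle spindles and lymphocytes, rose from near the limit of detection, with 3 and 6 counts at 0 h and 1077 and 1052 counts at 3 h. The ratio of its summed counts per depth was 242, with an exact 95% interval of 127 to 529.7 that covers counting error only. The fitted log2 fold change of EGR3 was 7.50 without replicate 1 of 0 h and 8.47 without replicate 2. Exons of EGR3 and EGR2 overlap long noncoding transcripts over 3.26% and 3.91% of their length, so their counts are uncertain to that extent.

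Among the FOS genes, FOSB and FOS rose steeply with wt MET and FOSL1 and FOSL2 less so, from higher starting levels. FOSB (chr19:45467995-45475179, plus strand), whose shorter isoform is known to accumulate on repeated stimulation, had 26.7 and 46.1 CPM at 0 h and 1294 and 1400.2 CPM at 3 h. Its log2 fold change was 5.21 (SE 0.20, adjusted p = 3.79e-10), ranging from 4.87 to 5.68 without one or the other 0 h library. FOS (chr14:75278826-75282230, plus strand), the classic immediate early gene, went from 7.38 and 10.9 CPM to 166 and 171 CPM (log2 fold change 4.20 ± 0.14). FOSL1 (chr11:65892049-65900573, minus strand), which encodes FRA-1 and is known to be induced later than FOS and to be abundant in invasive cells, rose from 897 and 1254 CPM to 2594 and 2534 CPM (log2 fold change 1.25 ± 0.14, adjusted p = 1.85e-05). FOSL2, which encodes FRA-2, moved least of the FOS genes, from 730.4 and 812 CPM to 1151 and 1147 CPM (log2 fold change 0.58 ± 0.09). For each of these genes both 3 h libraries lay above both 0 h libraries.

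Of the JUN genes, JUNB (chr19:12791486-12793315, plus strand), a weaker activator that can oppose JUN, rose most with wt MET, from 57.9 and 57.8 CPM to 827 and 898 CPM at 3 h (log2 fold change 3.90 ± 0.13, adjusted p = 3.04e-11). Exons of HOOK2 on the opposite strand overlap 14.2% of its length, and reads of both genes could be mixed if strand was not used. JUN (chr1:58776845-58784048, minus strand), the main activating partner, had 909 and 1062 CPM at 0 h and 2597 and 2704 CPM at 3 h (log2 fold change 1.43 ± 0.09, adjusted p = 8.40e-08). JUND, which is expressed in most resting cells, rose from 76.0 and 85.2 CPM to 106 and 116 CPM (log2 fold change 0.46 ± 0.13, adjusted p = 0.0233). That call was lost without replicate 1 of 0 h (adjusted p = 0.171) or replicate 2 of 3 h (adjusted p = 0.154). Per kilobase at 3 h, FOSL1 led at 1359 ± 22.5 CPM per kb, followed by JUN at 731 ± 20.8 and EGR1 at 728 ± 35.9, which did not differ beyond their spread, then JUNB at 471 ± 27.4 and FOSB at 243 ± 13.6.

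The later times were compared with the same 0 h libraries, so the 3 comparisons of a line are not independent. At 6 h with wt MET, 9 of the 10 genes were higher and none lower, against 16.4% and 17.8% of all tested genes, with JUND the exception (89.5 and 76.3 CPM). The log2 fold change at 6 h was 2.78 ± 0.23 for EGR1, 4.39 ± 0.14 for EGR2, 5.59 ± 0.29 for EGR3 and 3.72 ± 0.19 for FOSB. Without replicate 1 or 2 of 0 h it was 2.35 or 3.44 for EGR1, 5.20 or 6.17 for EGR3 and 3.38 or 4.19 for FOSB. From 3 to 6 h, 7 genes fell and none rose, where 1.66% and 1.44% of tested genes did. FOS fell by 2.11 on the log2 scale (SE 0.12) to 41.9 and 36.1 CPM, and EGR1 fell by 1.93 (SE 0.22) to 619 and 577 CPM. FOSL1 was not called between these times, at 2464 and 2484 CPM at 6 h (log2 difference -0.05 ± 0.14, adjusted p = 0.923), nor was FOSL2 at 1235 and 1282 CPM (0.13 ± 0.08, adjusted p = 0.520). JUND was not called between 3 and 6 h (-0.42 ± 0.13, adjusted p = 0.104), but was with no filter on low counts (adjusted p = 0.00518) or with each line fitted alone (0.00962). JUNB, called lower, lost its call without replicate 2 of 3 h (adjusted p = 0.0690) or replicate 1 of 6 h (adjusted p = 0.0800).

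From 6 to 12 h all 10 genes fell with wt MET and none rose, against 5.98% and 5.59% of tested genes. FOSB and EGR2 fell most, by 2.94 (SE 0.18) and 2.92 (SE 0.12) on the log2 scale, and JUND least, by 0.49 (SE 0.13), a call lost without any of 3 of the 4 libraries concerned. Against 0 h, 5 genes were still higher at 12 h (EGR2, EGR3, FOSB, FOSL1 and JUNB) and JUND was lower, where 16.9% and 18.2% of tested genes were higher and lower. EGR1 was back at 99.8 and 96.7 CPM, between the 2 libraries of 0 h, and FOS at 9.48 and 8.75 CPM. JUNB was still at 112 and 109.9 CPM (log2 fold change 0.94 ± 0.12, adjusted p = 4.49e-05), and the log2 fold change of EGR2 was 1.46 ± 0.16 (adjusted p = 1.32e-05). The 0 h replicates decided several of the remaining calls. EGR1 would be called higher at 12 h without replicate 2 of 0 h (log2 fold change 0.81), and without replicate 1 FOSL1 lost its call (0.30) and JUN was called lower (-0.29). FOSB and FOSL1 were also lost without replicate 1 of 12 h (adjusted p = 0.0744 and 0.0516), FOSB with each line fitted alone (0.0628), and JUND without that library (0.124) or without replicate 2 of 0 h (0.119).

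In cells expressing MET∆14 the same genes split. At 3 h, 4 were higher than at 0 h (EGR2, EGR3, FOSB and FOSL1) and 2 lower (EGR1 and FOSL2), against 15.5% and 16.1% of all tested genes, with a median log2 fold change of 0.10 over the 10 genes and -0.05 over all tested genes. FOSL1 rose most, from 43.5 and 53.7 CPM to 429 and 373 CPM (log2 fold change 3.04 ± 0.15, adjusted p = 5.39e-09). Both libraries at 3 h were several times above those at 0 h, yet below all wt MET libraries. It stayed high at 6 h, at 328 and 337 CPM (2.77 ± 0.15), and at 12 h, at 103 and 116 CPM (1.17 ± 0.15), the one member called higher at all 3 times in this line.

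The EGR genes of MET∆14 cells started from other levels and moved apart. EGR1 had 212 and 228 CPM at 0 h, 128 and 115 CPM at 3 h, 81.8 and 89.2 CPM at 6 h and 33.3 and 29.2 CPM at 12 h. Each time point lay below the one before, and the log2 fold change against 0 h was -0.86 (SE 0.22, adjusted p = 0.00949) at 3 h and -2.81 (SE 0.24) at 12 h. The 3 h call was lost without replicate 2 of 0 h (adjusted p = 0.0531) or of 3 h (adjusted p = 0.0687). EGR3 rose from 1.96 and 1.79 CPM to 9.69 and 8.09 CPM at 3 h (log2 fold change 2.24 ± 0.21), was at 1.95 and 1.71 CPM by 6 h, and had 8 and 2 counts at 12 h. EGR2 had 29 and 43 counts at 0 h and 51 and 69 counts at 3 h, a ratio per depth of 1.97 with a counting interval of 1.46 to 2.68, and 8 and 4 counts at 12 h.

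FOS was not called higher with MET∆14 at any of the 3 times. It had 36.2 and 34.3 CPM at 0 h, 30.9 and 29.4 CPM at 3 h (log2 fold change -0.22 ± 0.12, adjusted p = 0.192), 17.4 and 19.9 CPM at 6 h and 9.31 and 8.90 CPM at 12 h (-1.95 ± 0.14). By 12 h its level overlapped that with wt MET. FOSB went from 20.7 and 20.8 CPM to 41.6 and 40.6 CPM at 3 h (0.99 ± 0.19) and to 8.27 and 8.25 CPM at 12 h (-1.33 ± 0.22). FOSL2 fell to 113 and 107 CPM at 6 h from 249 and 236 CPM at 0 h (-1.14 ± 0.09), and was higher again at 12 h, at 170.0 and 154 CPM (12 h against 6 h 0.56 ± 0.09). Its smaller fall at 3 h (-0.35 ± 0.09) was no longer called without replicate 1 of 0 h (adjusted p = 0.0668) or of 3 h (adjusted p = 0.0742).

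The JUN genes showed no called change at 3 h with MET∆14. JUNB had 224 and 239 CPM at 0 h and 258 and 237 CPM at 3 h (log2 fold change 0.10 ± 0.11), then 130 and 144 CPM at 6 h (-0.76 ± 0.12). JUN had 149 and 162 CPM at 0 h, 174 and 160 CPM at 3 h and 191 and 189.5 CPM at 6 h, when it was called higher (0.29 ± 0.09, adjusted p = 0.0201). That call was lost without replicate 1 of 0 h (adjusted p = 0.190) or without either 6 h library (0.0978 and 0.0913). JUND went from 84.4 and 94.6 CPM at 0 h to 55.0 and 50.1 CPM at 6 h (-0.77 ± 0.13).

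Over the 10 genes with MET∆14, 2 were higher (FOSL1 and JUN) and 5 lower (EGR1, FOS, FOSL2, JUNB and JUND) at 6 h, against 21.6% and 22.5% of tested genes. At 12 h FOSL1 alone was higher and the other 9 lower, against 18.3% and 20.1%, with a median log2 fold change of -1.20 over the 10 genes and -0.02 over all tested genes. None of these calls was lost without either of the 2 libraries at 12 h, although these stood far apart as a whole. Between successive times, 7 genes fell and none rose from 3 to 6 h (5.10% and 4.67% of tested genes), EGR1, FOSL1 and JUN being the exceptions, and JUND was not called without replicate 2 of 6 h (adjusted p = 0.0505). From 6 to 12 h, 7 fell (EGR1, EGR2, EGR3, FOS, FOSB, FOSL1 and JUN) and FOSL2 rose (10.3% and 8.30%). The falls of EGR1 and FOSB over these last hours were not called without replicate 1 of 12 h (adjusted p = 0.0578 and 0.0936), that of EGR2 was not called without replicate 2 of 6 h (0.0627), and without replicate 1 of 12 h JUND was called higher (log2 difference 0.41). JUNB was called lower without replicate 2 of 12 h (log2 difference -0.51).

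**Figure D2:**
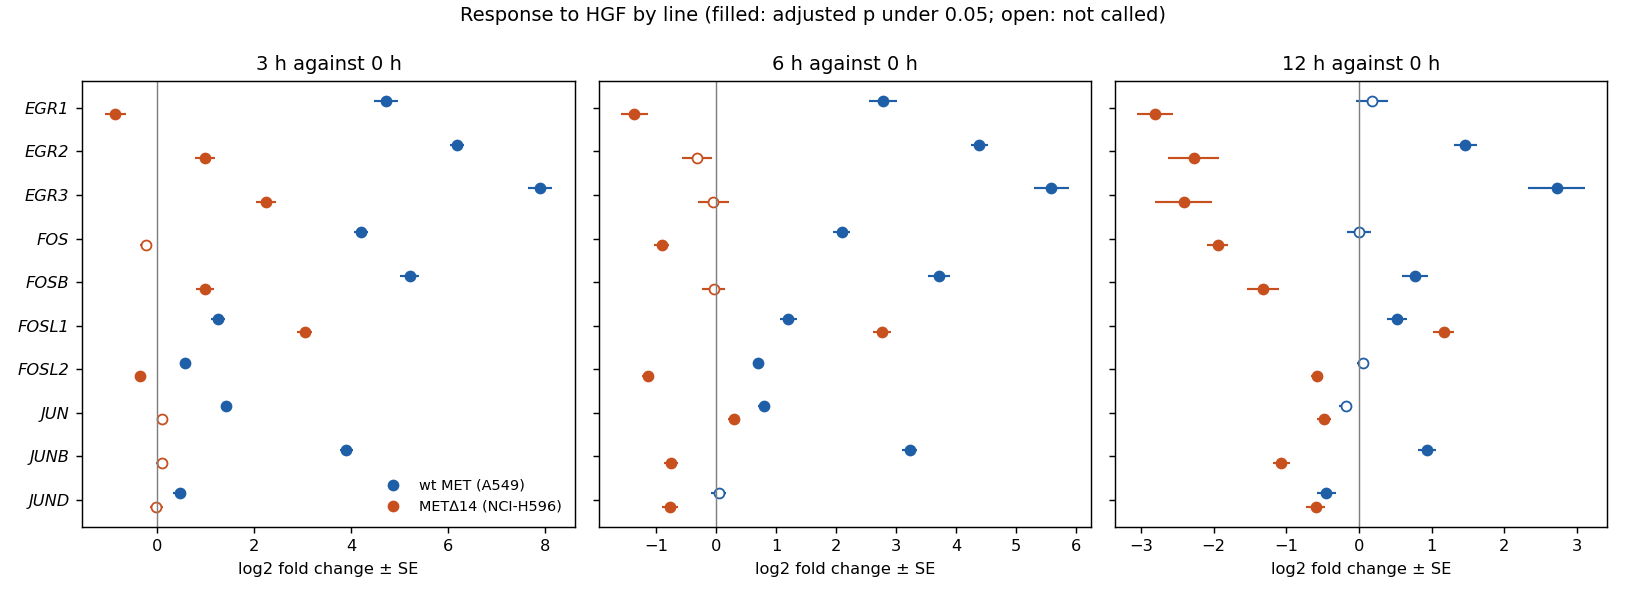
Log2 fold change against 0 h (x axis, bars are ± 1 SE) of each gene at 3, 6 and 12 h of HGF, with wt MET in blue and MET∆14 in orange; filled points had an adjusted p under 0.05 and open points did not. All 10 wt MET points are filled and above 0 at 3 h, while with MET∆14 4 are higher, 2 lower and 4 open, and FOSL1 is the one gene whose orange point lies right of the blue at each time.

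The difference between the responses was tested as an interaction, the log2 fold change with MET∆14 minus that with wt MET. All 10 genes differed over the 3 times together, where 37.6% of tested genes did. At 3 h, 8 genes responded less with MET∆14 and 1, FOSL1, more, against 8.47% and 8.93% of tested genes. A response before 3 h, which was not sampled, is not covered by this comparison. EGR3 and EGR1 differed most at 3 h, by -5.65 (SE 0.40) and -5.58 (SE 0.33), with EGR2 at -5.20 (SE 0.29), FOS at -4.43 (SE 0.19), FOSB at -4.22 (SE 0.26) and JUNB at -3.80 (SE 0.17). JUN (-1.33 ± 0.13) and FOSL2 (-0.92 ± 0.12) differed less, and JUND was not called (-0.48 ± 0.18, adjusted p = 0.0892), but was with no filter on low counts (-0.50, adjusted p = 0.0137). FOSL1 had a difference of 1.79 (SE 0.20, adjusted p = 2.23e-05), reached from a starting level that was far lower with MET∆14. Without replicate 1 or 2 of wt MET at 0 h the FOSL1 difference was 2.01 or 1.5, that of EGR1 -5.14 or -6.24 and that of FOSB -3.88 or -4.70.

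At 6 h, 9 of the 10 genes responded less with MET∆14 and FOSL1 more (13.8% and 16.4% of tested genes), JUND included (-0.81 ± 0.19). At 12 h, 7 responded less and FOSL1 more (11.0% and 13.0%), with JUN (-0.30 ± 0.13, adjusted p = 0.117) and JUND (-0.15 ± 0.19, adjusted p = 0.630) not called. The FOSL1 difference at 12 h was 0.65 (SE 0.20, adjusted p = 0.0278). It was 0.39 and not called once the second wt MET library of 0 h was left out, and also lost its call without either wt MET library of 12 h, replicate 1 of MET∆14 at 0 h or replicate 2 of MET∆14 at 12 h, with adjusted p from 0.0741 to 0.144. JUN was called at 12 h without replicate 2 of wt MET at 0 h (adjusted p = 0.0403) or the second MET∆14 library at 12 h (0.0237), and JUND without the latter (0.0355).

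A change over time common to both lines was tested in a model with line and time as separate terms. It was called for 9 of the 10 genes, all but FOSL2 (adjusted p = 0.551), against 30.6% of tested genes. With no filter on low counts FOSL2 was called as well (adjusted p = 0.0133). Since all 10 also differed between lines, this common term describes no one line. JUNB had the largest adjusted p of the 9, 0.0386, and was not called with the replicate number as a block (adjusted p = 0.0516) or without replicate 1 or 2 of wt MET at 3 h, replicate 1 or 2 of wt MET at 12 h, or replicate 1 of MET∆14 at 12 h (adjusted p from 0.0635 to 0.10).

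**Figure D3:**
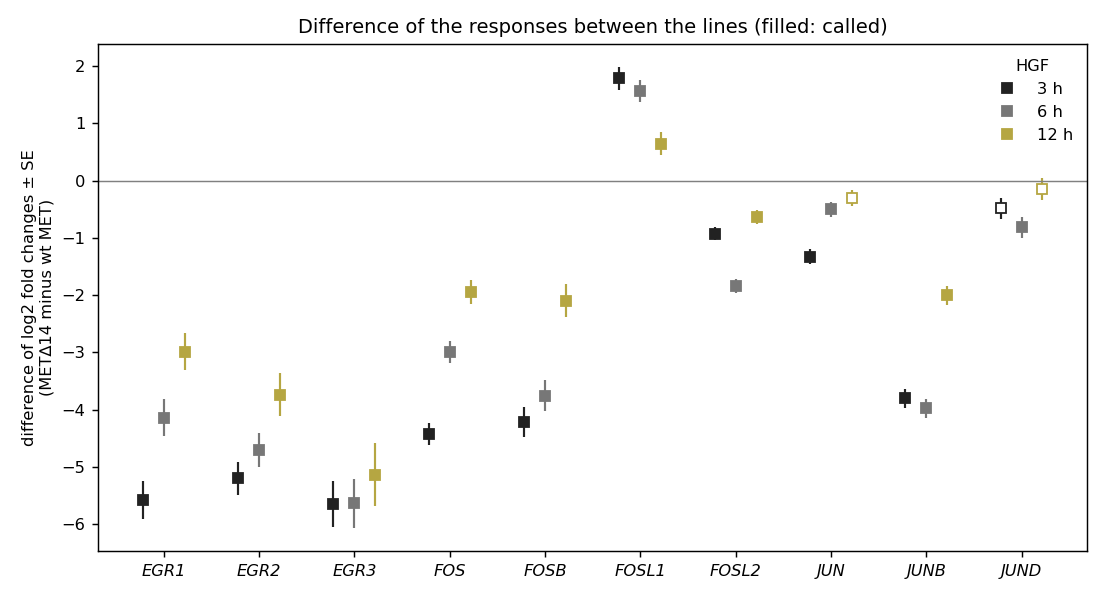
Difference of log2 fold changes against 0 h, MET∆14 minus wt MET (y axis, bars are ± 1 SE), for each gene at 3, 6 and 12 h of HGF; filled squares had an adjusted p under 0.05. FOSL1 alone lies above 0, while the EGR genes, FOS, FOSB and JUNB lie lowest, from -1.95 to -5.65.

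Per kilobase, the makeup of the FOS and JUN families differed between the lines. With wt MET, FOSL1 made up 82.7% ± 2.0 (SD, n = 2) of summed FOS family transcripts at 0 h and 74.9% ± 0.900 at 3 h, when FOSB had risen from 0.937% to 13.4% ± 0.808. With MET∆14, FOSL2 had the largest share at 0 h, 45.5% ± 3.03, ahead of FOSL1 at 34.6% ± 4.15 and FOS at 14.9% ± 0.995. FOSL1 then made up 83.0% ± 1.54 at 3 h, 87.7% ± 0.0872 at 6 h and 68.2% ± 3.23 at 12 h, when FOSL2 held 26.7% ± 2.92. With wt MET the share of FOSL1 was 82.7% ± 0.348 at 6 h and 86.7% ± 0.267 at 12 h. The family sum remained lower, at 256 ± 20.8 CPM per kb at 3 h with MET∆14 against 1814 ± 8.25 with wt MET.

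For the JUN family, JUN made up 78.7% ± 1.08 with wt MET at 0 h and JUNB 9.19% ± 0.897. By 3 h JUNB had 37.4% ± 0.631 and JUN 58.0% ± 0.741. With MET∆14, JUNB was the main member at every time, between 59.5% ± 0.366 at 3 h and 48.4% ± 2.53 at 6 h, with JUN at 20.3% ± 0.125 and 34.0% ± 0.968 at these times. EGR1 was the main EGR transcript throughout, with a mean share of 87.8% to 98.7% in the 8 conditions.

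**Figure D4:**
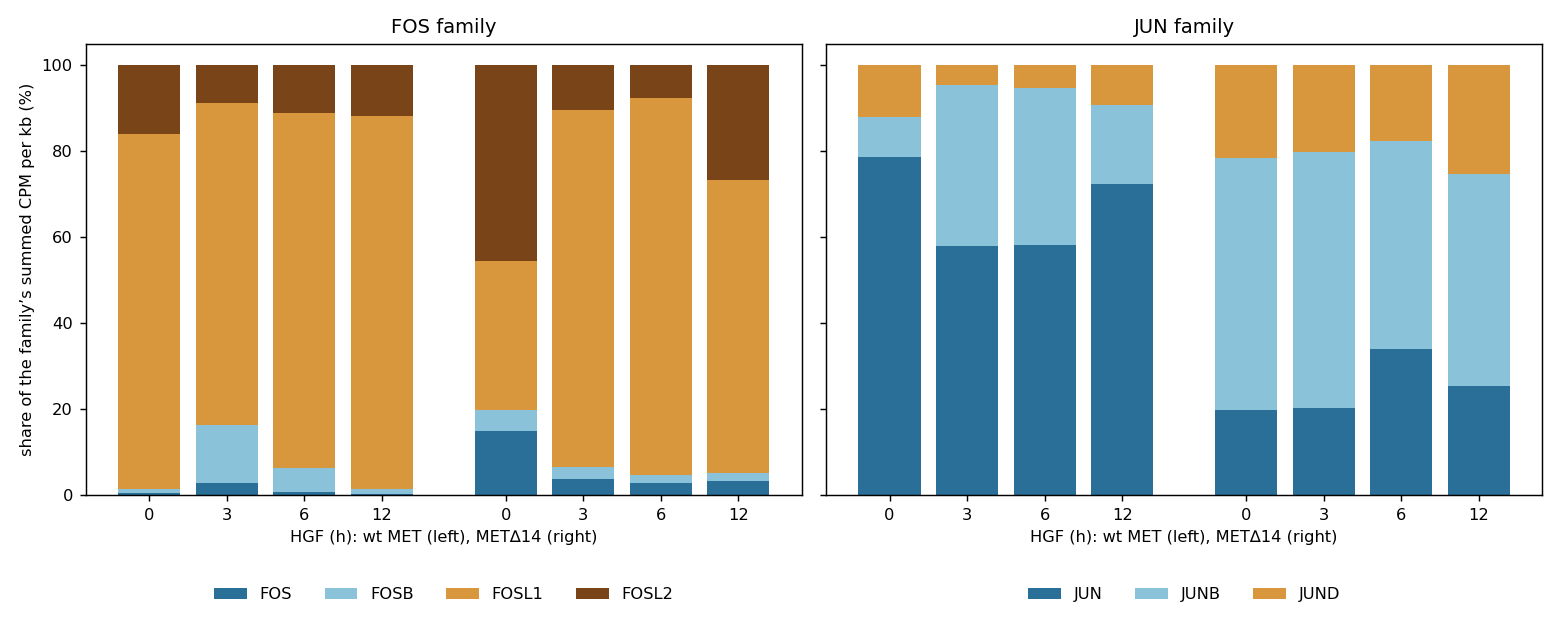
Share of each gene (y axis, %) in the summed CPM per kb of the FOS family (left panel) and JUN family (right panel) at 0, 3, 6 and 12 h of HGF, as the mean of 2 libraries, with wt MET on the left of each panel and MET∆14 on the right. FOSL1 is the largest FOS block in all bars but MET∆14 at 0 h, and the largest JUN block is JUN with wt MET and JUNB with MET∆14.

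Other genes of the pathway were followed as 4 lists from general knowledge. The lists were chosen with earlier results of these data known, so their counts are a description and not an independent test. NAB1, NAB2, TGFB1 and VEGFA stand on more than 1 of them. The counts of each list stand beside those over all tested genes, of which 10.3% rose and 7.16% fell at 3 h with wt MET and 15.5% and 16.1% with MET∆14. At 6 h 16.4% were higher and 17.8% lower with wt MET, and 21.6% and 22.5% with MET∆14. At 12 h these shares were 16.9% and 18.2% with wt MET, and 18.3% and 20.1% with MET∆14. Of 19 tested partners and corepressors, 11 rose and 2 fell at 3 h with wt MET, and 7 rose and 3 fell with MET∆14, with median log2 fold changes of 0.42 and -0.08 (-0.04 and -0.05 over all tested genes). With wt MET the largest rises were of EGR4, from 1 and 15 counts to 508 and 435 counts, and of NAB2 (2.28 ± 0.09), and the largest falls of JDP2 (-0.51 ± 0.16), an AP-1 repressor, and NFE2L1 (-0.39 ± 0.09). With MET∆14 EGR4 rose from 5 and 2 counts to 64 and 83 counts, a ratio per depth of 24.9 with a counting interval of 11.8 to 63.0, and MAFF, a small MAF protein, rose by a log2 fold change of 2.10 (SE 0.15). NFE2L1 (-0.38 ± 0.09) and ATF2 (-0.23 ± 0.08) fell. MAFF was at 161 and 234 CPM at 0 h with wt MET, above its 107 and 99.8 CPM at 3 h with MET∆14. The EGR4 response at 3 h was not shown to differ between lines (-1.31 ± 0.93, adjusted p = 0.391), and its SE is wide.

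Of 28 upstream kinases and serum response factors, 8 rose and 2 fell at 3 h with wt MET and 9 rose and 3 fell with MET∆14 (median log2 fold changes 0.17 and 0.03). The falls were no more frequent than over all tested genes with MET∆14, and near that share with wt MET. With wt MET, ETS2 (0.89 ± 0.08) and BRAF (0.70 ± 0.09) rose most, and RPS6KA1 (-0.32 ± 0.10) and MAPK14 (-0.28 ± 0.08), kinases of the ERK and p38 routes, fell. With MET∆14, ETS1 rose from 33.0 and 36.9 CPM to 185 and 168 CPM (2.34 ± 0.12) and SRF itself from 48.5 and 49.8 CPM to 115 and 119 CPM (1.25 ± 0.08). MRTFB (-0.71 ± 0.15), an SRF coactivator, and MAPK7 (-0.49 ± 0.11), which encodes ERK5, fell. ETS1 was higher with wt MET, at 456 and 586 CPM at 0 h and 634 and 655 CPM at 3 h.

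AP-1 targets were higher far more often than lower in both lines. Of 27 tested, 12 rose at 3 h with wt MET and 19 with MET∆14, and none fell, with median log2 fold changes of 0.14 and 1.0. At 6 h 14 and 23 were higher and none lower, and at 12 h 12 and 20 were higher and 1 and 2 lower. The response was larger with MET∆14 for 10 of the 27 at 3 h and smaller for none, against 8.93% and 8.47% of all tested genes. It was larger for 11 and smaller for 3 at 6 h (16.4% and 13.8% of all genes), and larger for 12 and smaller for 5 at 12 h (13.0% and 11.0%). CXCL8, which encodes interleukin-8, went from 9.19 and 13.6 CPM to 99.4 and 88.6 CPM with wt MET (3.04 ± 0.25) and from 15.8 and 16.8 CPM to 231 and 180.5 CPM with MET∆14 (3.66 ± 0.24). IL11 rose with wt MET (2.07 ± 0.13), from 284 and 281 CPM to 1159 and 1213 CPM. With MET∆14 it went from 2.48 and 3.33 CPM to 8.39 and 10.1 CPM. LIF rose with MET∆14 (3.38 ± 0.14), from 4.56 and 4.67 CPM to 49.2 and 47.3 CPM. With wt MET it went from 158 and 183 CPM to 298 and 282 CPM.

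Among EGR targets more were higher than lower at 3 h in both lines. Of 22 tested, 10 rose and none fell at 3 h with wt MET, 13 were higher and 1 lower at 6 h, and 12 and 2 at 12 h. With MET∆14, 12 rose and 3 fell at 3 h, 8 and 6 at 6 h, and 3 and 9 at 12 h, of which the 3 falls at 3 h, the 6 at 6 h and the 3 rises at 12 h lay near the shares over all tested genes. The difference of responses was called positive for 4 and negative for 5 of the 22 at 3 h. Over all tested genes these shares were 8.93% and 8.47%. At 6 h it was called positive for 4 and negative for 8 (16.4% and 13.8% of all tested genes), the 4 lying near that share. At 12 h it was called positive for 1 and negative for 12 (13.0% and 11.0%). NR4A1, an orphan nuclear receptor that is itself an immediate early gene, had the largest rise with wt MET, from 7.74 and 6.01 CPM to 242 and 215 CPM (5.06 ± 0.14), followed by NAB2. With MET∆14 the largest rises were of F3, which encodes tissue factor (2.44 ± 0.12), and PDGFB (1.43 ± 0.25), and the largest fall was of TNFSF10, which encodes the death ligand TRAIL (-1.80 ± 0.23).

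**Figure D5:**
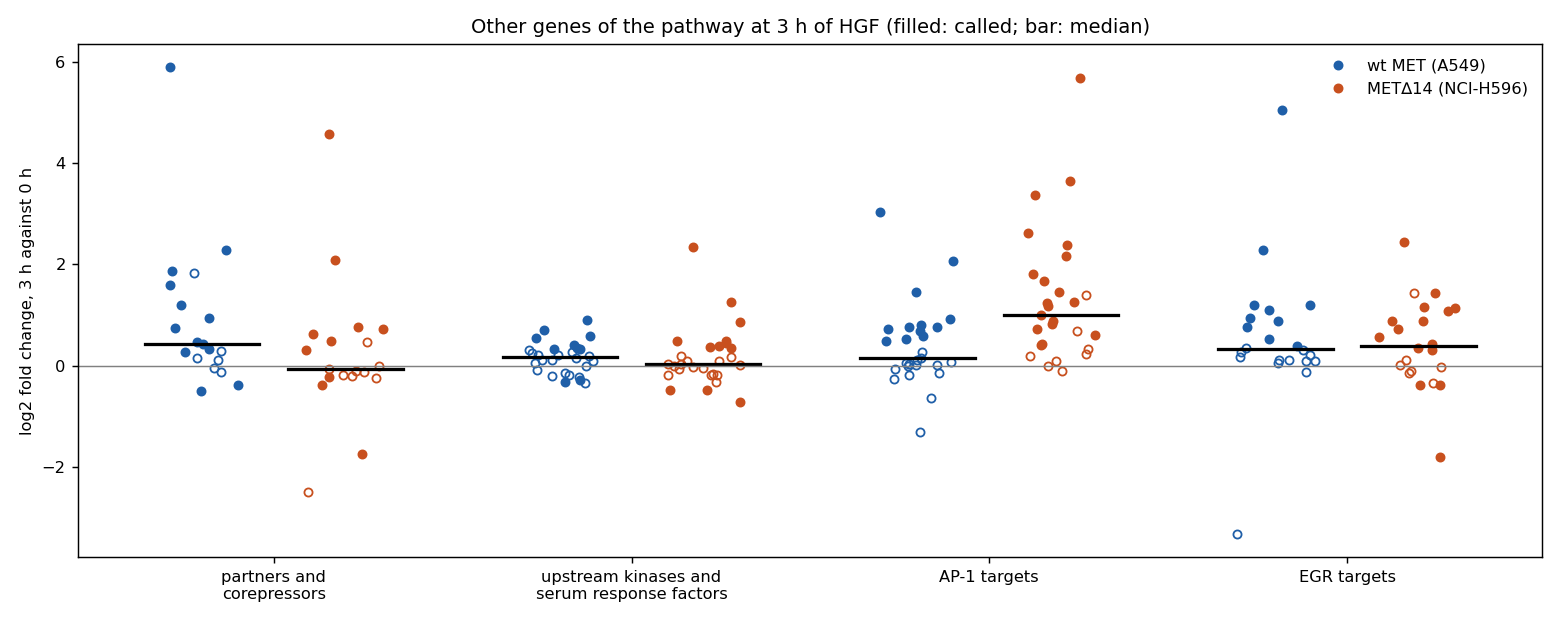
Log2 fold change at 3 h against 0 h (y axis) of each tested gene of the 4 lists, with wt MET in blue and MET∆14 in orange; filled points had an adjusted p under 0.05, open points did not, and black bars are list medians. Among AP-1 targets the median is 0.14 with wt MET and 1.0 with MET∆14, and no filled point lies below 0.

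How alike the genes moved was described by Pearson's r of log2 CPM over the 16 libraries, centred within each line, which share the 2 time courses and so are not independent. EGR2 and FOSB were most alike (r = 0.991), followed by EGR1 and FOS (0.988). FOSL1 stood apart, with r of -0.24 with FOSL2, 0.25 with EGR1 and 0.30 with FOS, and at most 0.56, with EGR3. Outside the 10 genes, among 9630 searched, the most alike was IER3 for EGR1 (0.956) and FOS (0.968), and IER2 for EGR2 (0.975) and EGR3 (0.954). It was TIPARP for FOSB (0.981), CD3EAP for FOSL1 (0.985), ULK1 for FOSL2 (0.932), GCC1 for JUN (0.967), KLF10 for JUNB (0.981) and CASP9 for JUND (0.905).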

How the data were processed

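Gene counts were deposited by the authors as 1 table for the 16 poly(A) RNA libraries. Per the study's methods, adapters were trimmed and reads aligned with STAR to hg38 from Ensembl. The submitters' processing notes name STAR 2.5.0 and RSEM 1.3.2, the latter without a role, so the deposited whole-number counts may be rounded RSEM estimates, and reads shared by paralogs may have been split. The annotation version and use of strand are not given in the sources used here. Groups came from the sample titles. The wt MET columns begin with H549 where the titles have A549, and were matched by the rest of the name. 0 columns were left without a sample.

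Counts were filtered with filterByExpr (minimum count 10, minimum total 15), scaled by TMM and fitted with edgeR 4.0.16 (R 4.3.3; quasi-likelihood, robust, 1 coefficient per condition over all 16 libraries), which was tested on simulated data. Benjamini-Hochberg adjustment ran over all 15067 genes for each of 16 comparisons. CPM used TMM-scaled totals, and log2 CPM a prior count of 2. Exon lengths and gene positions came from GENCODE (hg38), with exons of all isoforms merged. Depth was 10158590 to 23909304 counts per library, and counting intervals are exact 95% intervals.

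The members and the gene lists were chosen with earlier results of these data known. All 10 members were named. From each list the 2 largest rises and 2 largest falls at 3 h per line were named, among called genes averaging 1 log2 CPM or more, together with EGR4 and MET, and for each member the most alike other gene averaging 3 log2 CPM or more. 1 gene that this rule names is not reported here. Alternatives were DESeq2 1.42.0, its size factors in edgeR, no filter, a filter of 10 counts in every library, each line alone, a replicate block, and leaving out each library.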

Additional observations from a re-analysis of the deposited data

Results flagged for a closer look

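The response to HGF differed between the lines for each of the 10 genes, by an F test of the 3 interaction terms in edgeR over 15067 genes, of which 37.6% passed. The adjusted p was 5.98e-09 for JUNB, 9.60e-09 for FOS, 1.04e-07 for EGR2, 3.34e-07 for FOSB, 5.91e-07 for FOSL2, 6.63e-07 for EGR1 and 9.37e-07 for EGR3. JUN had 1.74e-05 and JUND 0.0108. For these 9 genes the response was lower with MET∆14 than with wt MET at the times called. FOSL1, at 2.06e-05, had the larger rise with MET∆14 on the log2 scale, from a far lower starting level. Each MET status was 1 line, so the lines and the receptor cannot be told apart.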

How the results depend on the processing

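Of 1868 values of single members under the alternatives, 1818 kept their call or lack of one, 36 lost a call, 14 gained one and none that was called reversed. Some values that were not called changed sign, such as that of EGR1 at 12 h with wt MET. Its log2 fold change was 0.18, and -0.26 without replicate 1 of 0 h. DESeq2 and its size factors changed no member's call. The numbers of replicates did not pair the libraries: the correlation of replicate differences between conditions ran from -0.159 to 0.111, over 0.1 in 1 of 28 pairs. A replicate block changed 1 call, of JUNB in the model with line and time as separate terms (adjusted p = 0.0516). With 10 counts required in every library, EGR2 and EGR3 left the test, so 3 members were higher with wt MET at 12 h and 2 with MET∆14 at 3 h. The genes called between 3 and 6 h with wt MET numbered 467, 860 without a filter and 951 with the line fitted alone. Fitting each line alone gave 2801 in place of 1743 between 6 and 12 h with wt MET, and with MET∆14 695 in place of 1472 between 3 and 6 h and 1422 in place of 2806 between 6 and 12 h. The cause was not tested.

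Leaving out each library in turn left 1 sample in a condition, assumed to vary like the others. Members higher at 12 h with wt MET numbered 3 to 6 and lower 0 to 2. With MET∆14, 1 was lower at 3 h in place of 2 whichever of the 4 libraries was left out, 1 to 2 were higher at 6 h, and 1 to 2 rose from 6 to 12 h. For the difference of responses at 12 h, 0 to 1 were higher. Over all genes the calls with wt MET numbered 1363 to 2364 at 3 h, 3268 to 4360 at 6 h, 3046 to 4356 at 12 h, 96 to 204 from 3 to 6 h and 686 to 760 from 6 to 12 h. With MET∆14 they numbered 3029 to 3363 at 3 h, 3722 to 7157 at 12 h, 459 to 661 from 3 to 6 h and 852 to 6434 from 6 to 12 h, the last rising to 6434 without replicate 2 of 12 h. For the difference of responses at 3 h they numbered 1743 to 2314. Depth limits EGR3 with wt MET at 0 h and EGR2 and EGR3 with MET∆14 at 12 h, all under 10 counts per library.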

Other observations

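MET itself, the receptor gene, was lower with MET∆14 than with wt MET at 0 h, at 369.5 and 370.3 CPM against 1206 and 1275 CPM (log2 difference -1.75 ± 0.09, SE; edgeR adjusted p = 6.92e-11). The study describes MET transcript levels as similar between its wt MET and MET∆14 cells, and it names EKVX as its wt MET line. With wt MET, the MET transcript rose slightly at 6 h (log2 fold change 0.28 ± 0.09, adjusted p = 0.0213) and 12 h (0.29 ± 0.09, adjusted p = 0.0185). With MET∆14 no change was called at 3, 6 or 12 h (log2 fold changes 0.19, 0.17 and 0.07, SE 0.09 each). EGR4, the remaining EGR family gene, was at 0.821 and 0.742 CPM at 12 h with MET∆14, from 15 and 8 counts. It was called higher there than at 0 h, when it had 5 and 2 counts (log2 fold change 1.95 ± 0.71, adjusted p = 0.0406). EGR1, EGR2 and EGR3 were called lower at that time. The EGR4 response differed between the lines over the 3 times together (adjusted p = 0.0422), while the difference at no single time was called.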
